A study of Mus musculus with 100 samples.

Results

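The genes described here are 7 genes of nerve growth, Schwann cell injury and sensory signalling, *Ngfr*, *Bdnf*, *Gdnf*, *Gap43*, *Sox10*, *Gfra1* and *Tac1*, taken by name from a table of 17310 genes, and all 7 were counted. Knee joints of MRL/MpJ mice (labelled not susceptible to post-traumatic osteoarthritis), C57BL/6 mice (moderately susceptible) and STR/ort mice (highly susceptible) were profiled by poly(A) RNA sequencing. At 10 weeks of age the right knee was injured by a single compressive load of 10 to 12 N on the tibia, which ruptures the anterior cruciate ligament, and the uninjured contralateral joint served as control. Each library holds a whole joint with traces of soft tissue. The 100 libraries form 21 groups: uninjured joints of each strain at 0-day, and, for each strain, injured and uninjured joints at 3 later times (1-day, then 1-week, then 2-weeks). Groups hold 5 libraries, except for 4 in each strain at 0-day and in the 1-week uninjured joints of MRL/MpJ and STR/ort. The 70 libraries of 0-day, 1-day and 1-week are batch 1 in the labels and the 30 of 2-weeks are batch 2, so time and batch cannot be told apart at 2-weeks, and no test here sets 2-weeks against an earlier time.

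Schwann cells wrap and support the axons of peripheral nerves. When an axon is damaged they leave the myelinating state and enter a repair state, in which they make growth factors such as Bdnf and Gdnf and raise the neurotrophin receptor Ngfr. Neurotrophins act through Trk receptors and Ngfr, whereas Gdnf binds Gfra1, which signals with the receptor tyrosine kinase Ret. Gap43 is a protein of growth cones that is also made by Schwann cells and some other cells, Sox10 is a transcription factor of the Schwann cell and melanocyte lineages, and Tac1 encodes the precursor of the neuropeptides substance P and neurokinin A. The cell bodies of the sensory neurons that supply a joint lie in ganglia outside it.

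On the GRCm38 build (mm10), *Bdnf* lies at chr2:109674700-109727007 on the plus strand, *Gdnf* at chr15:7810846-7837575 on the plus strand, *Tac1* at chr6:7554879-7565834 on the plus strand, *Ngfr* at chr11:95568818-95587735 on the minus strand, *Gfra1* at chr19:58235604-58455909 on the minus strand, *Gap43* at chr16:42248442-42340651 on the minus strand and *Sox10* at chr15:79154908-79165240 on the minus strand. All 7 are protein-coding genes and values are summed over their exons. An annotated antisense gene overlaps 896 exon bases of *Bdnf*, and another overlaps 416 exon bases of *Gfra1*. Whether the counting used strand is not given in the sources used here, so reads from these genes and their antisense partners cannot be told apart. The remaining 5 genes share no exon bases with an annotated gene.

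The 3 genes that encode secreted signals, *Bdnf*, *Gdnf* and *Tac1*, each have a cyclic AMP response element half-site (TGACG, searched on both strands) within 250 bases before at least 1 annotated transcript start. *Bdnf* was searched before 7 starts and *Gdnf* before 2, with a match before 1 start of each. The sequences are shown because these are the members whose products leave the cell, and *Bdnf* and *Tac1* were called higher with injury in STR/ort joints. They are from RefSeq on GRCm38, 5′ to 3′ on the gene's strand, with the half-site in capitals (its reverse complement, CGTCA). The *Bdnf* window is chr2:109692186-109692435 before the third of 7 annotated starts, with the half-site 35 bases before the start. The *Gdnf* window is chr15:7809798-7810047 before the first of 2 starts, with the half-site 50 bases before the start. The *Tac1* stretch is chr6:7554811-7554878, the part of its window that lies outside annotated exons, with a half-site 197 bases before the RefSeq start. The starts are those of RefSeq, and those used for *Bdnf* and *Tac1* lie within the gene intervals given above, whereas that of *Gdnf* lies before its interval.
Bdnf: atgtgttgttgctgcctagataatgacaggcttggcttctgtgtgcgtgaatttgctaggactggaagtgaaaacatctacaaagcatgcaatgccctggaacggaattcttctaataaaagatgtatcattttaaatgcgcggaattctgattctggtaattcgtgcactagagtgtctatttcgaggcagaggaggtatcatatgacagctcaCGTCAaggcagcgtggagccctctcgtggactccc
Gdnf: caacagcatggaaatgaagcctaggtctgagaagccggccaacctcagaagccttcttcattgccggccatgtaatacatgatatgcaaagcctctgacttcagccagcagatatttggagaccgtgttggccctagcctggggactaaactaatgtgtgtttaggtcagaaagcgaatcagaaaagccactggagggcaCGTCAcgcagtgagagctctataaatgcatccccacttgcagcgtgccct
Tac1: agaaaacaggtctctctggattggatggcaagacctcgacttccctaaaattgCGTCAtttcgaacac
A second half-site of *Tac1*, 43 bases before the RefSeq start, lies within the gene interval, in the part not shown. The half-site was present in 17.8% of 32851 promoter windows of the same length, a full element (TGACGTCA) in 1.55%, an AP-1 motif (TGANTCA) in 6.75% and a SOX motif (ACAANG) in 36.3%. None of these motifs was in the windows of *Ngfr* and *Gfra1*, and no full element was in the window of any member. These are shares per window, and a gene searched in several windows holds a match in 1 of them more often. The SOX motif was 171 bases before the third start of *Bdnf*, in the window shown, and the AP-1 motif 152 bases before its second start. These matches describe letters only. Promoter sequences of *Gap43* and *Sox10* are not shown.

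Library depth ran from 6182016 to 20986027 counts, with a median of 10582592, at which 1 count equals 0.0945 CPM, the usual depth-scaled count. CPM is a gene's share of the library's counts on a fixed scale, here with trimmed mean of M-values (TMM) factors. The members are thinly counted, with means per library of 116 counts for *Gfra1*, 16.4 for *Ngfr*, 14.2 for *Sox10*, 12.8 for *Gap43*, 10.8 for *Bdnf*, 5.2 for *Gdnf* and 3.89 for *Tac1*. *Tac1* was at 0 counts in 18 libraries, *Bdnf* and *Gdnf* in 2 each, and the other 4 in none. CPM grows with transcript length, so levels are compared between groups and not between genes. Cartilage, bone and muscle fibre markers were all detected in every group, and the summed CPM of 18 Schwann cell and myelin genes ran from 170 to 394, with a median of 228. Joints are mixtures of cells, so fewer cells of a type and less RNA per cell cannot be told apart.

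Each comparison was tested with the edgeR quasi-likelihood test across all genes, with Benjamini-Hochberg adjusted p-values, and a gene was called where the adjusted p was under 0.05 and the fold change above 1.5. All p-values measure only the spread between these libraries, since the labels tie libraries to animals only at 2-weeks. Injured joints compared to uninjured contralateral joints gave 4 called values of 21 for the members at 1-day (3.98% of all gene values in the same comparisons were called), 8 of 21 at 1-week (6.05%) and 3 of 21 at 2-weeks (2.93%). All 15 were higher in injured joints, where 2.47%, 4.45% and 2.79% of all gene values were called higher. *Gap43* supplied 5, *Bdnf* and *Gfra1* 3 each, *Ngfr* and *Tac1* 2 each, and *Gdnf* and *Sox10* none. By strain and time, MRL/MpJ had 0, 1 and 0 of 7 called at the 3 times in order (2.02%, 3.13% and 1.16% of all genes), C57BL/6 had 2, 2 and 0 (5.6%, 5.82% and 2.95%) and STR/ort had 2, 5 and 3 (4.31%, 9.21% and 4.66%). In 1.73% to 8.73% of all genes, by comparison, every injured library was above every uninjured library.

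**Figure D1:**
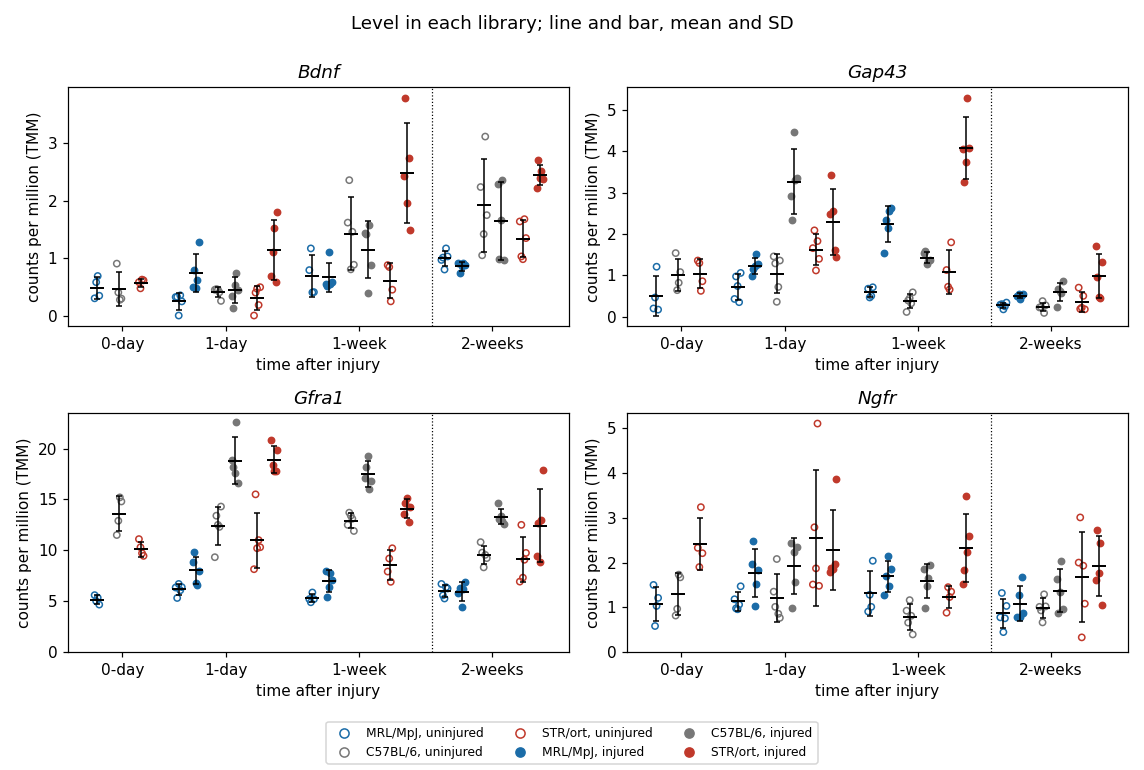
Level of *Bdnf*, *Gap43*, *Gfra1* and *Ngfr* in every library, in CPM with TMM scaling (vertical axes, linear), by time after injury (horizontal axes). Open circles are uninjured and filled circles injured joints, colours are strains, line and bar are the mean and SD of 4 or 5 libraries, and the dotted line separates 2-weeks, which is batch 2 in the labels. STR/ort injured joints hold the highest mean of *Bdnf* (2.48 CPM at 1-week) and of *Gap43* (4.09 CPM at 1-week), and the MRL/MpJ groups hold the lowest means of *Gfra1* at each time.

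*Bdnf*, a neurotrophin whose main receptor is Ntrk2, rose with injury in STR/ort joints at each time point, 3.64-fold at 1-day, 4.19-fold at 1-week and 1.83-fold at 2-weeks. At 1-day the uninjured STR/ort joints held 0, 0.399, 0.467, 0.183 and 0.494 CPM and the injured joints 0.683, 1.1, 1.52, 0.585 and 1.8 CPM. The groups did not overlap, and replicate 1 of the uninjured joints had no *Bdnf* count. The log2 fold change was 1.86 ± 0.45 (SE), with an adjusted p of 0.00549 by edgeR. At 1-week the uninjured joints held 0.879, 0.846, 0.247 and 0.45 CPM and the injured joints 2.44, 3.79, 1.96, 2.74 and 1.49 CPM. The lowest injured library was above the highest uninjured library, and the log2 fold change was 2.07 ± 0.41 (adjusted p = 0.00045, edgeR). At 2-weeks the uninjured joints held 1.64, 1.03, 0.982, 1.68 and 1.35 CPM and the injured joints 2.23, 2.72, 2.4, 2.52 and 2.38 CPM. These groups were again apart, with a log2 fold change of 0.87 ± 0.24 (adjusted p = 0.0112, edgeR). None of the 3 calls was lost when any library was left out or under any alternative setting that tested the gene. The filterByExpr setting removed *Bdnf* for its low counts at 1-day, so it could not test the 1-day call.

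In C57BL/6 joints *Bdnf* was not called with injury at any time, with log2 fold changes of 0.21 at 1-day, -0.23 at 1-week and -0.19 at 2-weeks. At 1-week the C57BL/6 uninjured joints held 1.62, 2.36, 0.805, 1.46 and 0.885 CPM and the injured joints 1.44, 1.42, 0.393, 1.58 and 0.888 CPM. These groups overlapped over most of their range. Uninjured STR/ort joints were lower than uninjured C57BL/6 joints at 1-week, with overlap (log2 difference -1.24 ± 0.44, adjusted p = 0.0242, edgeR), but this call was lost without C57BL/6 replicate 2 or STR/ort replicates 3 or 4 (adjusted p from 0.0608 to 0.114), and the difference turned to 0.32 with 2 factors of unwanted variation estimated from housekeeping genes. The injury effect differed between STR/ort and C57BL/6 at 1-week by 2.29 ± 0.55 on the log2 scale (adjusted p = 0.0451, edgeR), which was the only 1 of 63 member tests of an interaction between strain and injury to be called (0.557% of all gene values). It lies close to the threshold. It was lost with RLE size factors (adjusted p = 0.05) and when only the groups compared were fitted (adjusted p = 0.107). It was also lost without any of 13 of the 19 libraries compared, with adjusted p from 0.0508 to 0.102 and a log2 difference from 1.97 to 2.41: C57BL/6 injured replicates 1, 2, 3 and 5, C57BL/6 uninjured replicates 1, 2 and 4, STR/ort injured replicates 1 to 4, and STR/ort uninjured replicates 3 and 4.

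In MRL/MpJ joints *Bdnf* at 1-day was 0.322, 0.325, 0, 0.352 and 0.246 CPM in uninjured and 0.494, 0.796, 0.474, 0.627 and 1.28 CPM in injured joints. Every injured library was above every uninjured library, but the log2 fold change of 1.53 ± 0.52 was not called (adjusted p = 0.0956, edgeR). It was called with 1 and with 2 factors of unwanted variation (1.75 with each, adjusted p = 0.0359 and 0.0372). At 1-week MRL/MpJ *Bdnf* was 0.792, 1.17, 0.403 and 0.408 CPM in uninjured and 0.545, 0.523, 1.11, 0.551 and 0.585 CPM in injured joints, which overlapped (log2 fold change 0.03, adjusted p = 0.989). The difference in injury effect between STR/ort and MRL/MpJ at 1-week was 2.03 and was not called (adjusted p = 0.13). With the replicate number as a block it was 2.10 (adjusted p = 0.0431, edgeR). At 2-weeks the same difference was 1.08 against MRL/MpJ (adjusted p = 0.244) and 1.06 against C57BL/6 (adjusted p = 0.519), and at 1-day 1.66 against C57BL/6 (adjusted p = 0.194) and 0.34 ± 0.75 against MRL/MpJ (adjusted p = 1).

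Set in order over the 21 groups, *Bdnf* was highest in the STR/ort injured joints of 1-week (2.48 ± 0.869 CPM, SD, n = 5) and 2-weeks (2.45 ± 0.182 CPM, n = 5), which overlapped, and lowest in the 1-day uninjured joints of MRL/MpJ (0.249 ± 0.145 CPM, n = 5) and STR/ort (0.309 ± 0.211 CPM, n = 5), which overlapped as well. Within injured joints STR/ort was above MRL/MpJ at 1-week by 1.82 ± 0.36 on the log2 scale (adjusted p = 8.61e-05) and at 2-weeks by 1.5 ± 0.24 (adjusted p = 8.06e-06). STR/ort was above C57BL/6 at 1-week by 1.06 ± 0.32 (adjusted p = 0.00723), and C57BL/6 was above MRL/MpJ at 2-weeks by 0.97 ± 0.26 (adjusted p = 0.00522, all edgeR). In C57BL/6 the contralateral joints held 0.905, 0.402, 0.274 and 0.295 CPM at 0-day and the 1-week values given above, a log2 difference of 1.52 ± 0.42 (adjusted p = 0.015, edgeR). The groups overlapped. This call and that of *Gap43* described below were the 2 of 42 member values called between contralateral joints and 0-day (4.54% of all gene values). The *Bdnf* call was lost without C57BL/6 0-day replicate 4 (adjusted p = 0.0581) or 1-week uninjured replicate 2 (adjusted p = 0.0515).

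Endothelial markers moved with *Bdnf* in STR/ort at 1-week and 2-weeks, and fibroblast markers did as well. The summed level of *Pecam1*, *Cdh5* and *Kdr* was 199 to 242 CPM in uninjured and 278 to 355 CPM in injured STR/ort joints at 1-week, and 252 to 278 against 300 to 319 CPM at 2-weeks. None of the 3 genes was called with injury in any strain, since no fold passed 1.5. *Pecam1* had a log2 fold change of 0.57 ± 0.09 and *Cdh5* of 0.55 ± 0.09 at 1-week in STR/ort. At 1-day in STR/ort, where *Bdnf* rose, the sums overlapped at 193 to 234 and 223 to 254 CPM. At 1-week the summed fibroblast markers were 17300 to 35300 CPM in uninjured and 38500 to 64000 CPM in injured STR/ort joints. At 2-weeks they were 11900 to 15400 and 22400 to 30800 CPM. Genes of satellite cells and denervated muscle were also apart at 1-week (13.9 to 23.7 and 25.1 to 59.1 CPM). In C57BL/6 at 2-weeks, where *Bdnf* was not called, the endothelial sums were 256 to 298 and 294 to 331 CPM. The part of these genes in the *Bdnf* result was not tested.

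*Gdnf*, the ligand of Gfra1, was not called with injury in any of the 9 comparisons with TMM scaling, with log2 fold changes from -0.50 to 1.14 and a smallest adjusted p of 0.0581 by edgeR. An unadjusted p under 0.05 was found in 1 of the 9, and DESeq2 called 0 of the 7 for which it gave an adjusted p. That smallest value belonged to STR/ort at 1-week, where uninjured joints held 0.377, 0.363, 0.411 and 0.338 CPM and injured joints 0.697, 0.653, 0.624, 1.73 and 0.498 CPM. The groups did not overlap (log2 fold change 1.14 ± 0.43). Replicate 4 of the injured joints was far above the other 4, and without it the log2 fold change was 0.69 (adjusted p = 0.313). The comparison lies at the threshold, and *Gdnf* was called there with 1 factor (1.19, adjusted p = 0.0485) and with 2 factors of unwanted variation (1.54, 0.0491), and without injured replicates 3 or 5. Counts were 14 in 4 uninjured and 40 in 5 injured libraries, so the depth limits this comparison. In STR/ort injured joints *Gdnf* was higher at 1-week than at 1-day (0.256, 0.331, 0.138, 0.366 and 0.631 CPM) by 1.31 ± 0.44 on the log2 scale (adjusted p = 0.0286, edgeR), and the groups overlapped. That call was lost without 1-day injured replicates 1 or 3 or 1-week injured replicate 4 (adjusted p from 0.0576 to 0.163), with 2 factors of unwanted variation (0.0516) and when only the groups compared were fitted (0.0503). The lowest group mean was that of MRL/MpJ at 0-day, 0.118 ± 0.146 CPM (n = 4), where 2 of 4 libraries had no count.

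*Ngfr*, the low-affinity neurotrophin receptor p75, was called higher in STR/ort than in either other strain at 0-day. STR/ort joints held 2.33, 1.9, 3.24 and 2.21 CPM, MRL/MpJ joints 1.5, 0.581, 1.03 and 1.21 CPM and C57BL/6 joints 0.815, 0.965, 1.73 and 1.67 CPM. The lowest STR/ort library was above the highest library of either other strain, as it was for 14.9% of all genes against MRL/MpJ and 15.6% against C57BL/6. *Ngfr* in STR/ort was 2.22-fold above MRL/MpJ (log2 difference 1.15 ± 0.33, adjusted p = 0.0114) and 1.84-fold above C57BL/6 (0.88 ± 0.30, adjusted p = 0.0279, edgeR). These are 2 of 4 called values of 21 at 0-day (14.8% of all gene values were called), and the other 2 belong to *Gfra1*. The call against C57BL/6 was lost without C57BL/6 replicates 1 or 2 or STR/ort replicate 3 (adjusted p from 0.0813 to 0.107). With 2 factors of unwanted variation both calls were lost, at log2 differences of 0.61 against MRL/MpJ (adjusted p = 0.355) and 1.54 against C57BL/6 (0.222), and with 1 factor that against C57BL/6 was lost as well (0.64, 0.286). Without MRL/MpJ replicate 1 the number of called member values at 0-day rose from 4 to 7. Schwann cell and myelin genes moved the same way in part, with 5 of 18 higher and 1 lower in STR/ort than in MRL/MpJ (8.34% and 6.44% of all genes were) and sums of 322 to 365 CPM in STR/ort, 205 to 244 CPM in MRL/MpJ and 193 to 281 CPM in C57BL/6. The summed level of 4 repair Schwann cell genes stood apart in the same joints, at 242 to 283 CPM in STR/ort, 77.4 to 90.3 CPM in MRL/MpJ and 67.9 to 87.8 CPM in C57BL/6 at 0-day, and was 79.7 to 114 CPM in STR/ort uninjured joints at 1-day. Most of that sum was *Jun*, a transcription factor of the immediate early response, at 248 ± 17.4 CPM in STR/ort (n = 4), 66.1 ± 5.83 CPM in MRL/MpJ (n = 4) and 61.8 ± 8.72 CPM in C57BL/6 (n = 4), whereas *Gfap* was lower in STR/ort than in either other strain. The part of these genes in the *Ngfr* difference was not tested.

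With injury *Ngfr* was called at 1-week only, in C57BL/6 and STR/ort. The C57BL/6 uninjured joints held 0.924, 0.657, 1.16, 0.81 and 0.393 CPM and the injured joints 1.85, 0.979, 1.47, 1.66 and 1.94 CPM, which overlapped through injured replicate 2. The log2 fold change was 1.00 ± 0.29 (2.01-fold, adjusted p = 0.0208, edgeR). The STR/ort uninjured joints held 0.879, 1.45, 1.23 and 1.35 CPM and the injured joints 1.51, 1.83, 3.48, 2.24 and 2.59 CPM, which did not overlap. That log2 fold change was 0.93 ± 0.28 (1.91-fold, adjusted p = 0.0171, edgeR). The C57BL/6 call was lost without injured replicate 5 or uninjured replicates 2 or 5 (adjusted p from 0.0504 to 0.0742), and the STR/ort call without injured replicate 3 (0.068) or uninjured replicate 1 (0.0509). The STR/ort call was also lost with 2 factors of unwanted variation (0.97, adjusted p = 0.066) and when only the groups compared were fitted (0.94, 0.054). The summed fibroblast markers were higher in injured joints without overlap in both comparisons, at 6320 to 9930 and 16700 to 25200 CPM in C57BL/6 and 17300 to 35300 and 38500 to 64000 CPM in STR/ort, while the summed Schwann cell and myelin genes overlapped (170 to 220 and 179 to 226 CPM, and 206 to 270 and 229 to 278 CPM). Their part in the *Ngfr* calls was not tested. At 1-day in STR/ort *Ngfr* was spread widely, with 1.51, 2.79, 1.87, 5.11 and 1.48 CPM in uninjured and 1.79, 1.87, 1.86, 1.97 and 3.88 CPM in injured joints, and the log2 fold change was -0.17 (adjusted p = 0.807). Uninjured STR/ort joints were called above MRL/MpJ (1.18 ± 0.34, adjusted p = 0.00473) and C57BL/6 (1.11 ± 0.33, adjusted p = 0.0109, edgeR) at 1-day, and both calls were lost without STR/ort uninjured replicate 4, at 5.11 CPM (adjusted p = 0.0511 and 0.0945). The highest mean over the 21 groups was that of the STR/ort 1-day uninjured joints (2.55 ± 1.53 CPM, n = 5) and the lowest that of the C57BL/6 1-week uninjured joints (0.789 ± 0.288 CPM, n = 5).

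*Gfra1*, the co-receptor that binds Gdnf, was lowest in MRL/MpJ at each time, below STR/ort and C57BL/6 in both kinds of joint. At 0-day MRL/MpJ joints held 5.59, 5, 5.34 and 4.66 CPM, STR/ort joints 11.1, 10.3, 9.71 and 9.45 CPM and C57BL/6 joints 11.5, 12.9, 15.2 and 14.8 CPM. No library of MRL/MpJ reached the range of the other strains, and every library was higher than in MRL/MpJ for 16.2% of all genes in C57BL/6 and 14.9% in STR/ort. *Gfra1* was 2.70-fold higher in C57BL/6 than in MRL/MpJ (log2 difference 1.43 ± 0.13, adjusted p = 1.62e-07) and 1.96-fold higher in STR/ort than in MRL/MpJ (0.97 ± 0.14, adjusted p = 2.48e-05, edgeR). The same order against MRL/MpJ was called in uninjured and in injured joints at each of the 3 later times, with log2 differences from 0.60 to 1.32. Of these 12 values only that of STR/ort in uninjured joints at 2-weeks (0.60, 1.51-fold) was lost on leaving out a library, since its log2 difference fell to between 0.46 and 0.58 without MRL/MpJ replicates 2 or 3 or STR/ort replicates 2 or 5. With 2 factors of unwanted variation the calls of C57BL/6 at 0-day (1.14, adjusted p = 0.109), of STR/ort in uninjured joints at 1-week (0.77, 0.0531) and of both strains in uninjured joints at 2-weeks (0.36 and 0.51) were lost, the last pair also with 1 factor (0.57 and 0.58). Fibroblast markers moved with this difference at 0-day: 6 of 6 were higher in C57BL/6 than in MRL/MpJ (9.64% of all genes were) and 4 of 6 in STR/ort than in MRL/MpJ (8.34%), with sums of 14800 to 20000 CPM in C57BL/6, 12800 to 15300 CPM in STR/ort and 7600 to 9060 CPM in MRL/MpJ. In uninjured joints at 1-week the sums overlapped between C57BL/6 (6320 to 9930 CPM) and MRL/MpJ (6940 to 10800 CPM). *Gfra1* was 12.9 ± 0.721 and 5.28 ± 0.401 CPM in these joints. The part of fibroblast markers in the *Gfra1* difference was not tested.

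*Gfra1* also rose with injury. In STR/ort at 1-day uninjured joints held 8.14, 15.5, 10.2, 11 and 10.3 CPM and injured joints 20.8, 18.4, 17.8, 17.8 and 19.9 CPM, without overlap (1.70-fold, log2 fold change 0.77 ± 0.13, adjusted p = 8.69e-05, edgeR). In STR/ort at 1-week uninjured joints held 7.91, 9.19, 6.9 and 10.2 CPM and injured joints 13.6, 14.6, 15.1, 12.8 and 14.3 CPM, again without overlap (1.65-fold, 0.72 ± 0.11, adjusted p = 1.77e-05, edgeR). Both STR/ort calls held without any library and in every alternative setting. In C57BL/6 at 1-day uninjured joints held 9.32, 13.4, 12.5, 12.3 and 14.3 CPM and injured joints 18.9, 18.2, 17.6, 22.6 and 16.6 CPM. These groups did not overlap either (1.52-fold, 0.60 ± 0.13, adjusted p = 0.000888, edgeR), but the fold fell below 1.5 without injured replicate 4 (log2 0.52) or uninjured replicate 1 (0.50). Smaller differences with an adjusted p under 0.05 and a fold below 1.5 were found in C57BL/6 at 1-week (0.46, adjusted p = 0.00117) and 2-weeks (0.49, 0.0364), in MRL/MpJ at 1-week (0.43, 0.0382) and in STR/ort at 2-weeks (0.43, 0.0484). In MRL/MpJ the log2 fold change was 0.40 at 1-day (adjusted p = 0.139) and -0.03 at 2-weeks. The summed fibroblast markers were higher in injured joints without overlap in C57BL/6 at 1-day (10800 to 15200 CPM in uninjured and 17200 to 25700 CPM in injured joints) and in STR/ort at 1-week (17300 to 35300 and 38500 to 64000 CPM), but overlapped in STR/ort at 1-day (17800 to 24600 and 18900 to 22100 CPM). Their part in the *Gfra1* rise was not tested. No interaction test was called for *Gfra1*, so a difference in its injury effect between strains was not shown. The STR/ort (18.9 ± 1.33 CPM) and C57BL/6 (18.8 ± 2.31 CPM) injured joints of 1-day were the highest of the 21 groups and overlapped, and the lowest was MRL/MpJ at 0-day (5.15 ± 0.407 CPM).

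*Sox10*, which marks the Schwann cell lineage in nerve, was not called with injury in any of the 9 comparisons. Its log2 fold changes ran from -0.24 to 0.47, and the smallest adjusted p was 0.383 by edgeR, with 0 unadjusted p under 0.05 and 0 calls by DESeq2. In STR/ort at 1-week, where 5 of the 7 members were called, uninjured joints held 1.38, 0.846, 0.411 and 0.563 CPM and injured joints 1.63, 0.522, 0.535, 1.12 and 0.697 CPM. The ranges overlapped throughout (log2 fold change 0.21 ± 0.38). Group means lay between 0.801 ± 0.428 CPM in the STR/ort 1-week uninjured joints and 1.89 ± 0.62 CPM in the C57BL/6 2-weeks injured joints. Melanocytes also express *Sox10*, and the summed level of 4 melanocyte markers ran from 17.8 to 35.5 CPM over all libraries. *Sox10* was called lower in STR/ort than in MRL/MpJ in uninjured joints at 1-week, and lower than in both other strains in injured joints at 1-week, with log2 differences of -0.90, -0.79 and -0.76. All 3 calls lay near the threshold, at adjusted p of 0.0475, 0.0345 and 0.0415, and all were lost with 1 factor (0.108, 0.0924 and 0.0787) and 2 factors of unwanted variation (0.607, 0.705 and 0.328), when only the groups compared were fitted (0.0988, 0.0611 and 0.0532) and on leaving out single libraries. The call in uninjured joints was lost without MRL/MpJ replicates 1 or 2 or STR/ort replicates 2, 3 or 4 (adjusted p from 0.0519 to 0.193). In injured joints the difference from MRL/MpJ was no longer called without its replicates 1, 3 or 5 or STR/ort replicates 2, 3 or 5 (0.0522 to 0.104), and that against C57BL/6 without any C57BL/6 replicate or STR/ort replicates 2, 3 or 5 (0.0504 to 0.122).

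*Gap43* was the member called with injury most often, and its log2 fold change was above 0 in all 9 comparisons, from 0.47 to 1.94 with a median of 1.45. At 1-week it rose in all 3 strains. MRL/MpJ uninjured joints held 0.678, 0.466, 0.504 and 0.713 CPM and injured joints 1.54, 2.35, 2.14, 2.57 and 2.63 CPM (3.81-fold, log2 fold change 1.93 ± 0.29, adjusted p = 3.22e-05, edgeR). C57BL/6 uninjured joints held 0.115, 0.394, 0.447, 0.324 and 0.59 CPM and injured joints 1.55, 1.6, 1.28, 1.34 and 1.37 CPM (3.74-fold, 1.90 ± 0.31, adjusted p = 4.46e-05). STR/ort uninjured joints held 1.13, 0.725, 0.658 and 1.8 CPM and injured joints 4.06, 3.26, 3.74, 5.29 and 4.08 CPM (3.83-fold, 1.94 ± 0.25, adjusted p = 9.39e-07). In each strain every injured library was above every uninjured library, as for 5.76% of all genes in MRL/MpJ, 6.58% in C57BL/6 and 8.73% in STR/ort. None of these calls was lost under any alternative or left-out library. The interactions at 1-week were 0.01, 0.04 and -0.03 on the log2 scale and not called.

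At 1-day *Gap43* was called in C57BL/6, where uninjured joints held 1.46, 1.29, 0.361, 0.72 and 1.36 CPM and injured joints 2.91, 2.35, 4.47, 3.3 and 3.35 CPM. The groups did not overlap (3.26-fold, log2 fold change 1.70 ± 0.28, adjusted p = 3.32e-05, edgeR). The 1-day log2 fold changes of MRL/MpJ (0.80, adjusted p = 0.228) and STR/ort (0.47, adjusted p = 0.306) were not called. The interaction between STR/ort and C57BL/6 at 1-day was -1.23 and was not called either (adjusted p = 0.0654), but it lies at the threshold. It was called with 2 factors of unwanted variation (-1.24, adjusted p = 0.0459), by DESeq2 (-1.23, adjusted p = 0.0377) and without C57BL/6 injured replicate 2 or uninjured replicate 1 or STR/ort injured replicate 2 or uninjured replicate 3. STR/ort uninjured joints at 1-day, with 1.66, 2.09, 1.12, 1.83 and 1.4 CPM, were 2.30-fold above those of MRL/MpJ, with 0.43, 0.975, 0.743, 0.352 and 1.06 CPM, without overlap (log2 difference 1.20 ± 0.33, adjusted p = 0.00276). All STR/ort libraries were higher for 16.4% of all genes in that comparison. With 1 and 2 factors of unwanted variation the *Gap43* difference was 1.13 and 1.08 and no longer called (adjusted p = 0.129 and 0.133). At 2-weeks *Gap43* was called in STR/ort, where uninjured joints held 0.704, 0.188, 0.218, 0.504 and 0.18 CPM and injured joints 1.7, 0.965, 0.481, 0.45 and 1.32 CPM. Injured replicates 3 and 4 lay within the uninjured range (log2 fold change 1.45 ± 0.38, adjusted p = 0.0082, edgeR), and the call was lost when only the groups compared were fitted (adjusted p = 0.0723). MRL/MpJ injured joints at 2-weeks, 0.498, 0.55, 0.43, 0.533 and 0.555 CPM, were all above their uninjured joints, 0.291, 0.304, 0.178, 0.251 and 0.342 CPM, but the log2 fold change of 0.88 was not called (adjusted p = 0.682).

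In injured joints *Gap43* also differed between the times of batch 1. From 1-day to 1-week it fell 2.28-fold in C57BL/6 (log2 difference -1.19 ± 0.25, adjusted p = 0.0017) and rose 1.81-fold in STR/ort (0.86 ± 0.24, adjusted p = 0.0075) and 1.82-fold in MRL/MpJ (0.87 ± 0.26, adjusted p = 0.0314, edgeR). Each strain was fitted on its own and the difference between them was not tested. The MRL/MpJ call was lost without 1-day injured replicates 1, 2 or 3 or 1-week injured replicates 2, 4 or 5 (adjusted p from 0.0585 to 0.0757). Altogether 7 of 21 member values were called between these times in injured joints (6.95% of all gene values), 6 of them higher at 1-week (4.37% of all gene values were called higher). In C57BL/6 the contralateral joints also held less *Gap43* at 1-week than the 1.54, 0.643, 0.822 and 1.08 CPM of 0-day, without overlap (log2 difference -1.40 ± 0.40, adjusted p = 0.0199). Every 1-week library was lower for 7.59% of all genes there. Fibroblast markers were lower in the same comparison, 5 of 6, as were 3 of 18 Schwann cell and myelin genes (4.49% of all genes were), and their part in it was not tested. The *Gap43* call was lost without 0-day replicates 1 or 4 or 1-week uninjured replicate 1 (adjusted p from 0.053 to 0.093).

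Among injured joints *Gap43* at 1-week was 2.83-fold higher in STR/ort than in C57BL/6 (log2 difference 1.5 ± 0.21, adjusted p = 7.29e-07) and 1.81-fold higher than in MRL/MpJ (0.85 ± 0.20, adjusted p = 0.000572, edgeR). No library of STR/ort overlapped those strains, and all STR/ort libraries were higher for 17.9% of all genes against C57BL/6 and 20.1% against MRL/MpJ. Factors of unwanted variation changed these values. With 2 factors the difference from C57BL/6 was 0.68 and no longer called, and that from MRL/MpJ was 0.54 with 1 factor and turned to -0.45 with 2. At 1-day C57BL/6 injured joints were 2.65-fold above MRL/MpJ (1.41 ± 0.27, adjusted p = 0.000105), a call that held under each alternative that tested it. At 1-week the same difference was below 0 (-0.65, adjusted p = 0.0382), a call lost by DESeq2 (0.0546) and without MRL/MpJ injured replicates 2, 3, 4 or 5 or C57BL/6 injured replicates 1, 3, 4 or 5 (0.0512 to 0.0908). The order over the 21 groups began with STR/ort at 1-week (4.09 ± 0.747 CPM), C57BL/6 at 1-day (3.27 ± 0.777 CPM) and STR/ort at 1-day (2.30 ± 0.799 CPM), all injured, with overlap between neighbours, and ended with the uninjured joints of C57BL/6 at 2-weeks (0.241 ± 0.103 CPM). Fibroblast markers moved with *Gap43*. Of 6 markers 4, 3 and 0 were called higher with injury at 1-day in C57BL/6, MRL/MpJ and STR/ort, 6, 5 and 4 at 1-week and 4, 4 and 5 at 2-weeks. Their sum at 1-week was 6320 to 9930 CPM in uninjured and 16700 to 25200 CPM in injured C57BL/6 joints. The part of fibroblast RNA in the *Gap43* result was not tested.

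*Tac1*, the precursor of substance P, was thinly counted, and its 2 called values with injury were both in STR/ort. At 1-week STR/ort uninjured joints held 0.503, 0.484, 0.329 and 0.788 CPM (4, 4, 4 and 7 counts) and injured joints 1.74, 1.7, 1.07, 0.915 and 1.39 CPM (15, 13, 12, 9 and 14 counts). The groups did not overlap, and the log2 fold change was 1.36 ± 0.46 (2.56-fold, adjusted p = 0.0318, edgeR). At 2-weeks uninjured joints held 0.822, 0.376, 0.655, 1.09 and 0.361 CPM and injured joints 2.23, 3.07, 0.481, 0.63 and 1.76 CPM. Injured replicates 3 and 4 lay within the uninjured range, and the log2 fold change was 1.29 ± 0.44 (2.44-fold, adjusted p = 0.0479, edgeR). With the replicate number as a block, which at 2-weeks pairs the joints of an animal, it was 1.24 and not called (adjusted p = 0.0688). The 2-weeks call was also lost with RLE size factors (1.27, 0.0502), when only the groups compared were fitted (1.28, 0.125) and by DESeq2 (adjusted p = 0.0676), and the 1-week call with 2 factors of unwanted variation (1.54, 0.107). The 1-week call was lost as well without injured replicates 1, 2 or 5 or uninjured replicates 1, 2 or 3 (adjusted p from 0.05 to 0.127), and the 2-weeks call without injured replicates 1, 2 or 5 or uninjured replicates 1, 2, 3 or 5 (0.0603 to 0.21). At 1-day *Tac1* in STR/ort was not called (log2 fold change -0.66, adjusted p = 0.499). In C57BL/6 *Tac1* was not called either, with means of 0.093 CPM in uninjured and 0.235 CPM in injured joints at 1-week. At 2-weeks these means were 0.176 and 0.425 CPM. No interaction test was called for *Tac1*, so a difference in its injury effect between strains was not shown. In MRL/MpJ at 1-week injured joints held 14 counts against 1 in uninjured joints, a ratio of 10.1 with a counting interval of 1.54 to 427. In STR/ort the summed axon and neuron genes were 8.71 to 13.3 CPM in uninjured and 16.3 to 19.5 CPM in injured joints at 1-week. At 2-weeks they were 8.48 to 10.4 and 11.1 to 15.9 CPM. The summed fibroblast markers were also higher without overlap in both STR/ort comparisons. The part of these genes in the *Tac1* calls was not tested.

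*Tac1* also differed between strains. Injured STR/ort joints at 1-week were above C57BL/6 joints, which held 0.103, 0.089, 0.0982, 0.237 and 0.646 CPM, by 5.17-fold (log2 difference 2.37 ± 0.47, adjusted p = 9.99e-05) and above MRL/MpJ joints, which held 0.273, 0, 0.428, 0.551 and 0 CPM, by 4.75-fold (2.25 ± 0.47, adjusted p = 0.000163, edgeR). No library overlapped, with the shares of all genes given for *Gap43* in these comparisons. With factors of unwanted variation the differences kept their size (2.18 to 2.74) but were not called (adjusted p from 0.102 to 0.322). At 2-weeks injured STR/ort joints were above MRL/MpJ by 2.70 ± 0.51 (adjusted p = 5.93e-05) and above C57BL/6 by 1.85 ± 0.47 (adjusted p = 0.00314), called under each alternative that tested them and each left-out library. Uninjured joints at 1-week held 19 *Tac1* counts in 4 STR/ort libraries and 1 in 4 MRL/MpJ libraries, a ratio of 18.9 with a counting interval of 3.01 to 787. Injured STR/ort joints rose from 1-day to 1-week by 2.36 ± 0.39 (5.13-fold, adjusted p = 5.83e-05, edgeR), from 0.0854, 0.441, 0.069, 0.146 and 0.631 CPM, without overlap. Every 1-week library was higher for 11.1% of all genes in that comparison. The highest 4 of the 21 group means were all STR/ort, at 1-week and 2-weeks in either joint (0.526 to 1.64 CPM), and the lowest was that of MRL/MpJ 1-day injured joints, with 1 count in 5 libraries.

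**Figure D2:**
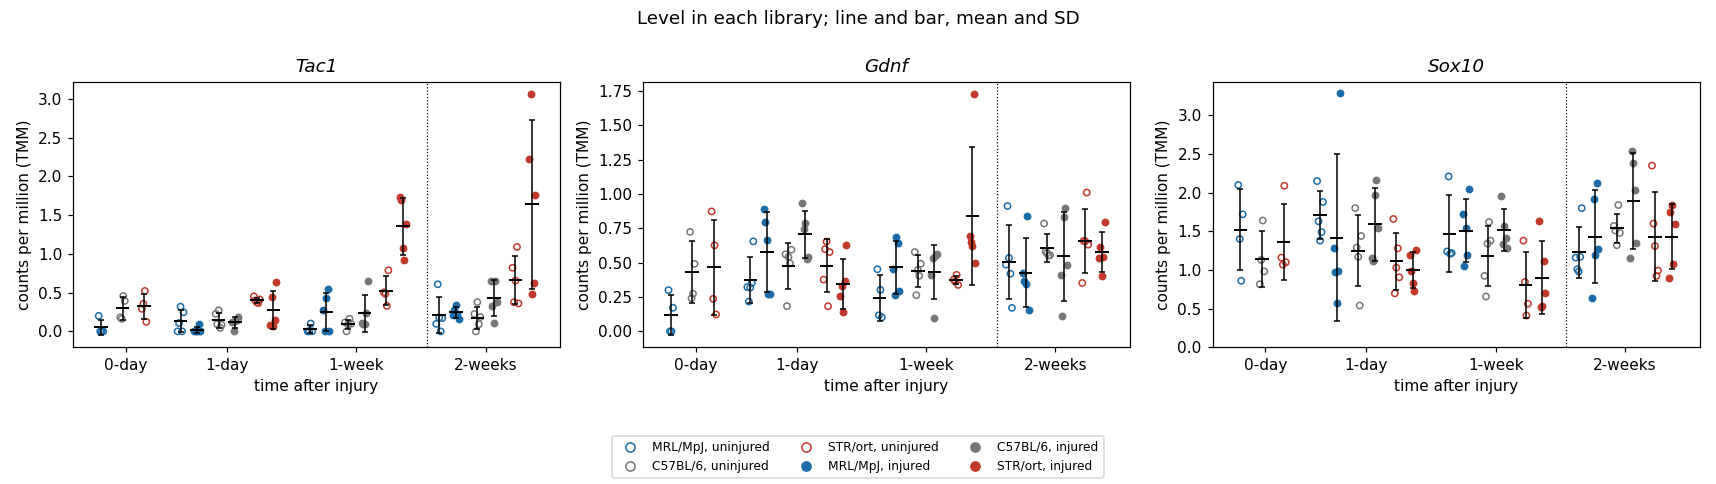
Level of *Tac1*, *Gdnf* and *Sox10* in every library, in CPM with TMM scaling (vertical axes, linear), by time after injury (horizontal axes), with symbols as in the plot of *Bdnf*. Injured STR/ort joints at 1-week lie between 0.915 and 1.74 CPM for *Tac1*, above the 0.646 CPM that is the highest of the other strains at that time, while *Sox10* overlaps between injured and uninjured joints throughout.

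**Figure D3:**
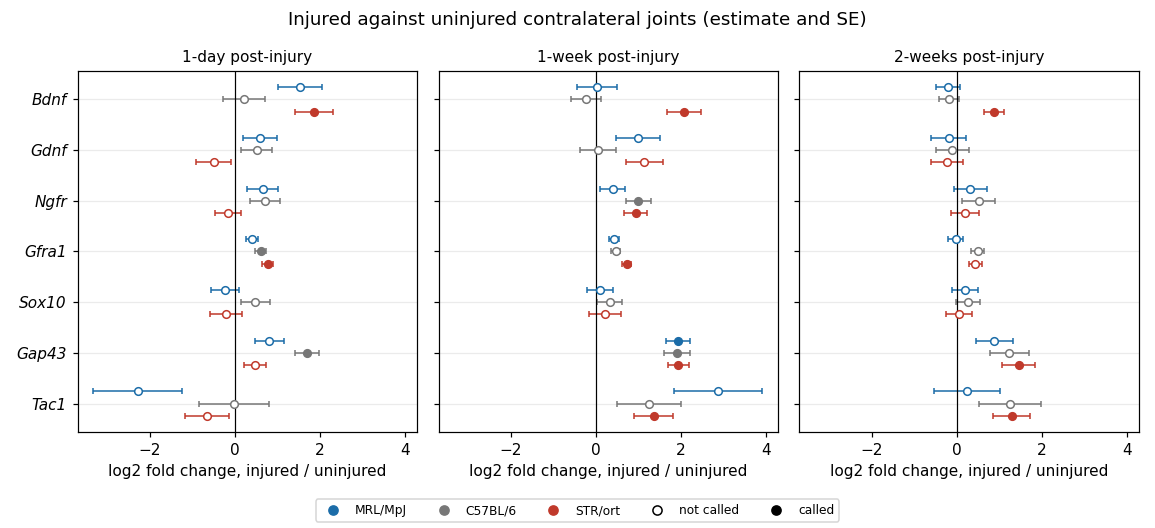
Log2 fold change of injured against uninjured contralateral joints (horizontal axes) for the 7 genes at each time and in each strain, with bars for the SE of the edgeR fit. Filled points passed an adjusted p of 0.05 and a fold of 1.5. The *Gap43* points of the 3 strains lie together at 1-week, from 1.90 to 1.94, whereas the *Bdnf* points range from -0.23 to 2.07. The *Tac1* points of MRL/MpJ at 1-day and 1-week rest on a group with 1 count.

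The strains were compared in uninjured joints after injury as well as in injured joints. In uninjured joints 20 of 63 member values were called (15.2% of all gene values), 18 higher and 2 lower in the strain labelled more susceptible (8.67% of all gene values were called higher). In injured joints 26 of 63 were called (17.1%), 23 higher and 3 lower (9.1% of all gene values were called higher). *Gfra1* against MRL/MpJ gives 6 of the calls in each kind of joint. With 1 factor of unwanted variation the count in uninjured joints fell from 20 to 10, and with 2 factors to 9. The differences named above for *Bdnf* in injured joints at 1-week and 2-weeks, *Gfra1* in injured joints at each time and *Tac1* in injured joints at 2-weeks were called under each alternative that tested the gene and with each library left out.

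**Figure D4:**
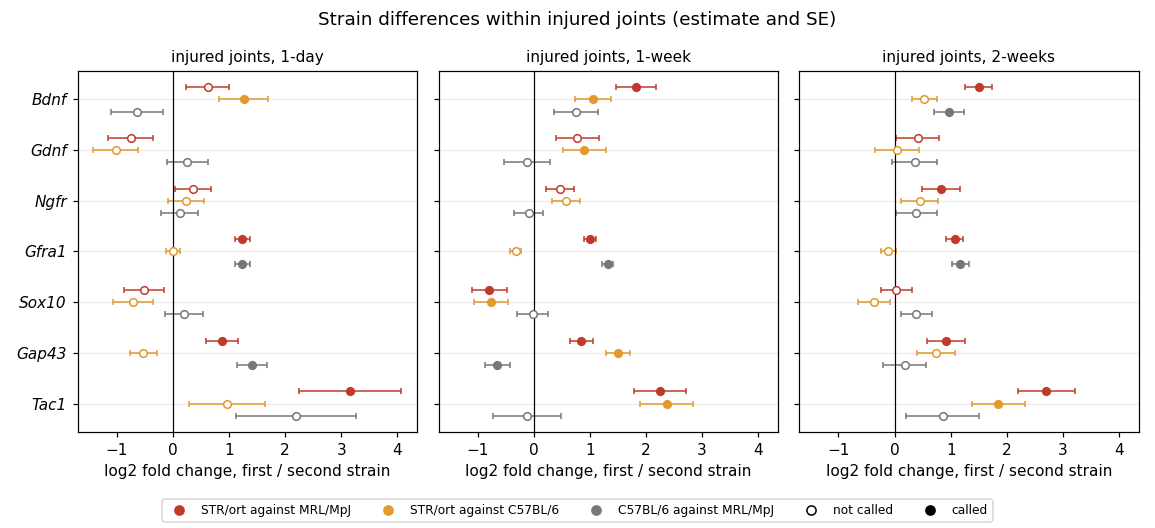
Log2 fold change between strains within injured joints (horizontal axes) for the 7 genes at the 3 later times, with bars for the SE. Filled points passed an adjusted p of 0.05 and a fold of 1.5. *Gfra1* is higher in STR/ort and in C57BL/6 than in MRL/MpJ at each time, by 1.00 to 1.32, and *Tac1* of STR/ort at 1-week lies above MRL/MpJ by 2.25 and above C57BL/6 by 2.37.

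The other genes of these pathways were followed by list, named by the number of injury comparisons in which they were called. Among the further neurotrophin genes and receptors, *Ntrk3*, the receptor of neurotrophin-3, fell with injury at 1-day in all 3 strains, by 1.71 in MRL/MpJ (adjusted p = 0.000104), 1.61 in C57BL/6 (9.23e-06) and 2.09 in STR/ort (2.07e-08, edgeR) on the log2 scale. In STR/ort its level was 5.34 ± 0.857 CPM in uninjured and 1.31 ± 0.67 CPM in injured joints (n = 5 each). At 1-week *Ntrk3* was still lower in STR/ort (log2 fold change -1.03, adjusted p = 0.00038), while in MRL/MpJ it was higher by 0.89 (adjusted p = 0.0167), a call lost without MRL/MpJ uninjured replicate 1 (0.105). At 2-weeks it was lower in STR/ort (-0.75, adjusted p = 0.0152), a call lost without injured replicate 3 or uninjured replicate 5 (0.0538 and 0.0686). *Ntrk2*, the receptor of Bdnf, was called in none of the 9 comparisons.

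Of 7 further genes of the Gdnf family counted, *Ret* was the only one called with injury, and it was higher. *Ret* rose in STR/ort by 0.93 at 1-day (adjusted p = 0.000473), 0.81 at 1-week (0.000181) and 0.89 at 2-weeks (3.03e-06), and in MRL/MpJ by 0.90 at 1-week (0.000717, edgeR). In STR/ort at 2-weeks *Ret* was 10.8 ± 1.87 CPM in uninjured and 20 ± 1.28 CPM in injured joints (n = 5 each). Its 1-day call in MRL/MpJ (0.79, adjusted p = 0.00824) was lost without injured replicate 2 (0.0704). Of 4 repair Schwann cell genes counted, *Lif*, a cytokine made after nerve damage, rose at 1-day in MRL/MpJ (2.27-fold, adjusted p = 0.0039) and STR/ort (2.34-fold, adjusted p = 5e-04), and *Jun*, *Gfap* and *Pou3f1* were not called with injury.

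Of 162 values of the 18 Schwann cell and myelin genes over the 9 injury comparisons 15 were called, or 9.26%, beside 4.32% of the values of all genes. There were 12 higher and 3 lower, 0 to 2 of each per comparison, with medians of the list from -0.12 to 0.28 beside medians of all genes from -0.03 to 0.01. *Scn7a*, a sodium channel of non-myelinating Schwann cells and of other cells, and *Gldn*, which helps to build nodes of Ranvier, were called in 5 comparisons each. *Scn7a* rose in C57BL/6 at 1-day (1.43, adjusted p = 8.7e-07) and 1-week (0.72, 0.0016), in MRL/MpJ at 1-week (0.90, 0.000965) and in STR/ort at 1-week (1.16, 4.5e-06) and 2-weeks (0.87, 8.87e-05). *Gldn* rose in C57BL/6 at 1-day (1.02, 0.00767) and 1-week (1.66, 0.00189) and fell in STR/ort at 1-day by 1.19 (0.000268). It was also called higher at 2-weeks in C57BL/6 (0.88, 0.0387) and STR/ort (0.70, 0.0285). The first of these calls was lost without injured replicates 1, 3 or 4 or uninjured replicates 1, 2, 4 or 5 (adjusted p from 0.0599 to 0.133) and the second without injured replicate 1 or uninjured replicates 3, 4 or 5 (0.0659 to 0.102). Of the myelin genes, *Pmp22* rose in MRL/MpJ at 1-week (0.63, 0.00138) and C57BL/6 at 2-weeks (0.65, 0.000244), both close to the fold threshold. The first call was lost without injured replicate 3 or uninjured replicates 3 or 4, where its fold fell below 1.5, and the second with no library. In STR/ort at 1-week *Mag*, a myelin adhesion protein (-1.06, 0.0239), and *S100b* (-0.66, 0.000688) fell, and *Pmp2* was called higher (0.0491) from 0 counts in the uninjured joints and 0 to 0.464 CPM in the injured joints. These 3 genes were named after their values were seen. The myelin gene *Prx* and the lineage genes *Erbb3*, *Egr2* and *Foxd3* were called in none of the 9 comparisons, as was *Sox10*.

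Of 8 axon and neuron genes counted, the tubulin gene *Tubb3* and the intermediate filament gene *Prph* were called most. *Tubb3* rose in C57BL/6 (1.53, adjusted p = 0.000257) and STR/ort (1.46, 0.00271) at 1-day and in STR/ort at 2-weeks (1.36, 0.000127). Its calls in STR/ort at 1-week (1.77, 0.0191) and C57BL/6 at 2-weeks (0.83, 0.0196) were lost on leaving out any of 4 libraries, injured replicate 1 or uninjured replicates 1, 3 or 4 in the first (0.0522 to 0.0548) and injured replicates 1 or 4 or uninjured replicates 1 or 3 in the second (0.0503 to 0.0712), and the first also when only the groups compared were fitted. *Prph* rose in C57BL/6 at 1-week (1.36, 0.00775) and 2-weeks (1.48, 0.00272) and in STR/ort at 2-weeks (1.5, 7.28e-05), and its call in STR/ort at 1-week (1.08, 0.0137) was lost without uninjured replicate 3 (0.0941) and with 2 factors of unwanted variation. Over the 8 genes 3, 2 and 2 were called higher in C57BL/6 at the 3 times in order (4.26%, 4.75% and 2.88% of all genes were), 1, 3 and 3 in STR/ort (1.61%, 5.67% and 4.34%) and none in MRL/MpJ (1.53%, 2.93% and 1.14%), and none was lower. Of 5 neuropeptide genes and receptors counted, *Tacr1*, the receptor of substance P, rose in C57BL/6 at 1-week (1.5, adjusted p = 9.51e-05) and 2-weeks (1.68, 0.000168) and in STR/ort at 1-week (1.46, 1.87e-06) and 2-weeks (1.78, 1.01e-06). Its calls in C57BL/6 at 1-day (0.70, 0.0459) and MRL/MpJ at 1-week (1.00, 0.0461) lay at the threshold. The first was lost without injured replicates 1, 3 or 4 or uninjured replicates 1, 2, 3 or 5 (adjusted p from 0.0518 to 0.156), by DESeq2, with the replicate block and when only the groups compared were fitted, and the second without injured replicates 2, 3, 4 or 5 or any uninjured replicate (0.0515 to 0.139) and with 2 factors of unwanted variation. In STR/ort at 1-week *Tacr1* was 4.29 ± 0.687 CPM in uninjured (n = 4) and 11.8 ± 3.71 CPM in injured joints (n = 5), so both *Tac1* and its receptor were higher in the injured joints of that group. *Gal*, which encodes galanin, rose in C57BL/6 at 1-day (1.37, 0.000781). *Ramp1*, which forms part of the receptor of calcitonin gene-related peptide, fell in STR/ort at 1-week (-0.73, 8.29e-05), a call lost with 2 factors of unwanted variation, where its fold fell below 1.5, but not on leaving out any library. Genes of regenerating muscle and denervated endplates moved in some of the same comparisons, with 4 of 6 higher in C57BL/6 and 2 of 6 in STR/ort at 1-day and 4 of 6 higher in STR/ort at 1-week, and muscle fibre genes fell in STR/ort at 1-day (3 of 5, beside 2.7% of all genes called lower) and 1-week (5 of 5, beside 3.54%). Their part in the results for the axon genes was not tested.

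**Figure D5:**
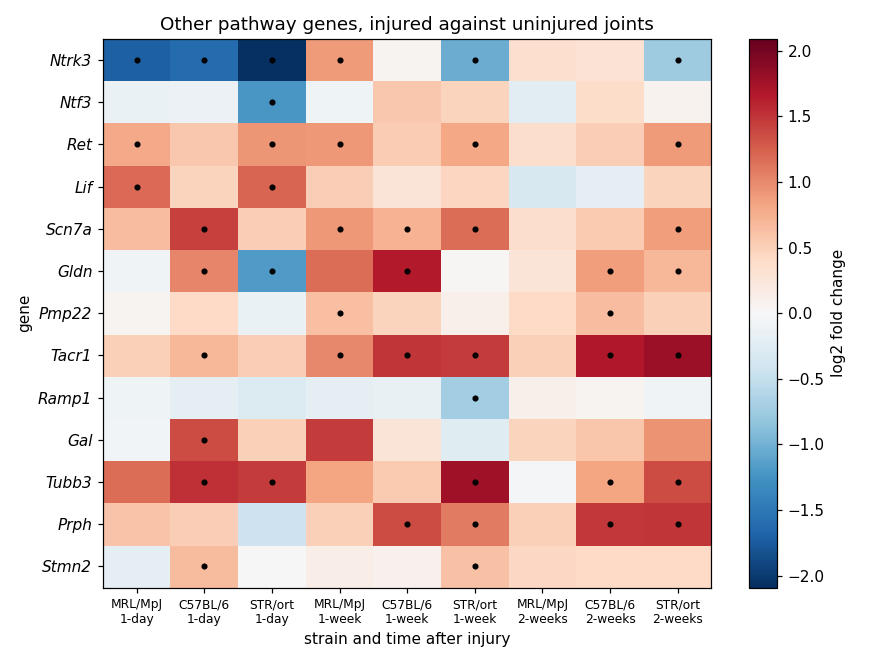
Log2 fold change of injured against uninjured joints (colour scale) for 13 further genes of the pathway lists (rows) in each strain and time (columns). A dot marks an adjusted p under 0.05 with a fold above 1.5. *Ntrk3* is the gene with the lowest values, at -1.71, -1.61 and -2.09 on 1-day, and *Tacr1* reaches 1.68 and 1.78 in C57BL/6 and STR/ort at 2-weeks.

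Over the 21 group means, across 14416 genes with at least 1 CPM on average, genes among the 3 most like each member in log2 CPM were named as a description, since points share strains, times and batches. *Sox10* went with the myelin genes *Cldn19* (Pearson r = 0.81) and *Prx* (0.80). *Gap43* went with *Lima1*, *Thbs4* and *B3galnt1* (0.94 each), *Gfra1* with *Fchsd2* (0.93), *Ccnd1* (0.90) and *H2-Ab1* (0.90), *Bdnf* with *Pecam1* (0.85), *Slc8a1* (0.84) and *Itga1* (0.83), and *Ngfr* with *Adamts1* (0.87) and *Kcne4* (0.86). *Gdnf* and *Tac1* averaged below 1 CPM and were left out. Among the 7 members the highest correlation over group means was that of *Ngfr* and *Gap43* (0.79), and that of *Sox10* with *Gap43* was -0.34 and with *Ngfr* -0.20. None of the named nearest genes was another member.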

How the data were processed

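Raw counts per RefSeq gene were deposited by the authors for 100 libraries, made with TopHat2 2.0.11 on mm10 and featureCounts. The strand setting of counting is not given in the sources used here. Groups followed the GEO labels. Genes needed at least 2 counts in at least 5 libraries, which removed none of 17310 (3 repeated entries were dropped). Counts were tested with edgeR 4.0.16 (R 4.3.3) using TMM factors. Fits held the 12 libraries of 0-day, all libraries of 1 later time, or batch 1 of 1 strain, for 48 comparisons. SE is the size of the log2 fold change divided by the square root of F. Alternatives were RLE factors, 1 or 2 RUVg factors from the authors' 25 housekeeping genes, DESeq2 1.42.0, filterByExpr, no filter, only the groups compared, a replicate block, and each library left out. Scripts were tested on simulated data. Members and gene lists were chosen with earlier results of these data known. Named were the members, up to 3 genes per pathway list called in most injury comparisons, markers that bear on a member, and the 3 genes most correlated with each member. At 2-weeks replicate numbers mark joints of the same mouse, and 10 of 15 pairs correlated above 0.1 (median 0.213). Loci and exons are from GENCODE on GRCm38 (mm10), promoters from RefSeq. Ratio intervals are exact and cover counting error only. No 2 libraries of a group were identical. Some genes that this rule named are not reported here.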

Additional observations from a re-analysis of the deposited data

Results flagged for a closer look

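In 14 of 147 gene and group pairs a library lay far from the rest of its group by Dixon's test. For normally distributed values chance gives about 1 in 20. Low counts are not distributed so, and the shares cannot be set against each other. *Ngfr* in STR/ort 1-day injured replicate 5 was 3.88 CPM, with the others at 1.79 to 1.97 CPM, and *Sox10* in MRL/MpJ 1-day injured replicate 5 was 3.29 CPM, with the others at 0.569 to 1.28 CPM. In those libraries the summed Schwann cell and myelin genes were also the highest of their groups, 308 CPM against 194 to 223 CPM and 337 CPM against 195 to 235 CPM. *Sox10* was also high in STR/ort 0-day replicate 3 (2.09 CPM), MRL/MpJ 1-week uninjured replicate 2 (2.21 CPM) and MRL/MpJ 2-weeks uninjured replicate 5 (1.8 CPM). There the same sum was 365 CPM (others 322 to 362 CPM) in the first, and within the range of the others in the second (226 CPM, others 190 to 248 CPM) and the third (197 CPM, others 191 to 216 CPM). *Bdnf* was high in MRL/MpJ 1-week injured replicate 3 (1.11 CPM, others 0.523 to 0.585 CPM) and low in C57BL/6 1-day uninjured replicate 5 (0.255 CPM). *Gdnf* was high in STR/ort 1-week injured replicate 4 (1.73 CPM, others 0.498 to 0.697 CPM) and C57BL/6 2-weeks uninjured replicate 1 (0.785 CPM), and low in C57BL/6 1-day uninjured replicate 2 (0.184 CPM). *Tac1* was high in C57BL/6 1-week injured replicate 5 (0.646 CPM, others 0.089 to 0.237 CPM). In 3 MRL/MpJ groups *Tac1* was counted in a single library, 0-day replicate 1 (0.2 CPM), 1-day injured replicate 4 (0.0895 CPM) and 1-week uninjured replicate 3 (0.101 CPM). A single counted library always passes this test.

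The injury effect on *Bdnf* at 1-week differed between STR/ort and C57BL/6 by 2.29 on the log2 scale, by the test of the difference itself (adjusted p = 0.0451, edgeR). This call lies close to the threshold. It was lost with RLE size factors, when only the groups compared were fitted, and without any of most of the libraries compared, as described for *Bdnf* above.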

How the results depend on the processing

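Of 75 called values of the members, 40 were called in every alternative that tested them, 44 with every library left out and 30 in both. Calls between strains at 0-day numbered 4 and fell to 2 with 2 RUVg factors. Of the 4 only that of *Gfra1* between STR/ort and MRL/MpJ was kept with 2 factors. Calls between strains in uninjured joints numbered 20 and fell to 10 with 1 and 9 with 2 RUVg factors. The 1 called interaction became 0 with RLE factors and with only the groups compared, and 2 with 2 RUVg factors and with the replicate block. Injury calls at 2-weeks numbered 3 and fell to 1 with filterByExpr, which removed *Gap43* and *Tac1*, and to 1 with only the groups compared. The direction turned for *Bdnf* between STR/ort and C57BL/6 uninjured joints at 1-week (-1.24, 0.32 with 2 RUVg factors) and *Gap43* between STR/ort and MRL/MpJ injured joints at 1-week (0.85, -0.45 with 2 RUVg factors). The cause was not tested. Left-out libraries gave 3 to 7 calls at 0-day, 3 to 4 for injury at 1-day, 6 to 9 at 1-week and 2 to 3 at 2-weeks, 16 to 21 and 23 to 28 between strains in uninjured and injured joints, 0 to 2 interactions, 0 to 3 for contralateral joints against 0-day (0 without C57BL/6 0-day replicate 4) and 6 to 7 for 1-week against 1-day.

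The labels pair joints by animal at 2-weeks only, and there the block ended 1 call (*Tac1* in STR/ort, 1.24, adjusted p = 0.0688). At 1-day and 1-week the labels do not say whether the numbers pair joints, and 9 of 15 and 10 of 13 pairs correlated above 0.1 (medians 0.108 and 0.162). There the block added the *Bdnf* interaction of STR/ort and MRL/MpJ at 1-week (2.10, adjusted p = 0.0431). Without TMM 1 of 147 mean levels moved by more than its spread, *Gfra1* in STR/ort 1-day injured joints (20.4 CPM). At the median depth 1 count of *Tac1* or *Gdnf* is 0.0945 CPM, which limits their comparisons.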
